A study of Homo sapiens with 17 samples.

Results

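Transcribed unprocessed pseudogenes are duplicated copies of genes that kept the exon and intron layout of the original, acquired disabling changes, and are still transcribed. The members described here are the genes of this biotype with an average TPM, a level corrected for transcript length and library size, of at least 5 in the RNA bound by both poly(A) binding proteins that were immunoprecipitated. They number 99 of the 347 genes of the biotype in the deposited table, and 99 of the 10391 genes of any biotype that pass the same TPM minimum. Among the other genes of the biotype, 152 were under the minimum in both immunoprecipitations (IPs), 72 were under it in the PABPC IP only, 3 were under it in the PABPN IP only, and 21 carried no TPM. The members were chosen by their TPM in the 2 IPs, so these levels and their ratio are given as a description.

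The cells were HEK293T, an established human embryonic kidney line, carrying a lentiviral construct that doxycycline switches on. The RPS2-STAMP construct makes the cytidine deaminase APOBEC1 joined to RPS2, a protein of the small ribosomal subunit, and the Control-STAMP construct makes APOBEC1 alone. Both lines received doxycycline at 50 ng/ml for 24 h and were crosslinked with 0.1% formaldehyde, and RNA was taken as Input, PABPN IP or PABPC IP. The 17 samples comprised RPS2-STAMP Input, PABPN IP and PABPC IP with 3 samples each, Control-STAMP Input and PABPN IP with 3 samples each, and Control-STAMP PABPC IP with 2 samples. The paper calls the lysate cytoplasmic, whereas the sample labels name no fractionation. Whether each stable line was 1 clone or a pool is not given in the sources used here.

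Poly(A) tails are held mainly by PABPN in the nucleus, where tails are made, and mainly by PABPC in the cytoplasm, where mRNA is translated. In Ribo-STAMP, C-to-U edits left by the RPS2 fusion mark RNA that a ribosome has contacted. An unprocessed pseudogene can be transcribed from the promoter duplicated with it, spliced at inherited splice sites and polyadenylated, but its reading frame is usually broken. Many arose in segmental duplications, so their sequence stays close to that of the parent gene, and short reads from them may match more than one place in the genome.

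Editing is given as EPKM, in which the number of edits is divided by the length of the transcript and by sequencing depth. The deposited EPKM had the editing of the control condition subtracted, and no value in the table lies below 0. A value of 0 is therefore listed as no editing above the control. Each gene has 1 EPKM and 1 average TPM per fraction, both pooled over replicates by the authors, so that no SD, n or p-value accompanies any value and no difference between fractions has a replicate check. The files hold no counts, and the number of reads behind each value is unknown. As a check of the labels, the HEK293T genes VIM, CDH2 and LIN28B had Input TPM of 184, 14.8 and 37.7, PAX2 had an Input TPM of 0.797, and the nuclear lncRNAs MALAT1 and NEAT1 had log2 ratios of PABPN IP to PABPC IP TPM of 4.33 and 4.10, against -1.41 for GAPDH and -1.75 for RPLP0. The markers of other cell types, PTPRC, ALB and HBB, were not among the genes of the table.

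How close the copies are to their parents is shown by matched stretches of 60 bases of coding sequence, each read from hg38 on the gene's own strand within 1 exon of the GENCODE release 44 model, written 5′ to 3′, with capitals at the bases that differ from the parent. Of the stretches that align without a gap in every gene of a set, the one with the most distinct sequences, and then the most differences, was taken, so a stretch need not have the identity of the whole gene. The FAM86 pseudogenes are copies of EEF2KMT, which encodes a methyltransferase of elongation factor 2, and formed the family with the most members, 7. The stretch is coding bases 895 to 954 of EEF2KMT, in exon 8 at chr16:5085671-5085730 on the minus strand, and the copies differed from it at 2 to 9 bases:
EEF2KMT: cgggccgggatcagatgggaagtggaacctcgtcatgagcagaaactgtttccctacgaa
FAM86C1P: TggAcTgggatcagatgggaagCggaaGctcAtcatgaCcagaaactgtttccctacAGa
FAM86C2P: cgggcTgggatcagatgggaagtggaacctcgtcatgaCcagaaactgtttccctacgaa
FAM86DP: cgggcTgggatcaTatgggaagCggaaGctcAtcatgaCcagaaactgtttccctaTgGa
FAM86EP: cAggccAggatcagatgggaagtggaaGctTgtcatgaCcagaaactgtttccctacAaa
FAM86FP: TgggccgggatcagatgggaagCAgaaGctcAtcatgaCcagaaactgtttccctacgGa
FAM86HP: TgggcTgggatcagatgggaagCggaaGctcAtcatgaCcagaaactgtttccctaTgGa
FAM86JP: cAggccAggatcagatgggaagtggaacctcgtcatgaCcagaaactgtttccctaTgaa

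SEPTIN7 encodes a septin, a GTP-binding protein that assembles into filaments, and 1 of its copies, SEPTIN7P13, carried the highest EPKM of any member in the PABPN IP. The stretch is coding bases 381 to 440 of SEPTIN7, in exon 6 at chr7:35873644-35873703 on the plus strand, and the copies lie on chromosomes 1, 4 and 7 and differed at 4 or 5 bases:
SEPTIN7: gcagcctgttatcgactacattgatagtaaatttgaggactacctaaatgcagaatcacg
SEPTIN7P13: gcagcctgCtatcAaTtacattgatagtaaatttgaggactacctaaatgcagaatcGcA
SEPTIN7P14: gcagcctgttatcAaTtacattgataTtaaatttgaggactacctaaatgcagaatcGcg
SEPTIN7P2: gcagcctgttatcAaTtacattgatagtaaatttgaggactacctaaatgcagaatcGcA

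NSUN5 encodes a methyltransferase that acts on ribosomal RNA, and both of its copies lie near it on chromosome 7. They are shown because their printed sequences are nearly the same while their EPKM values are not. The stretch is coding bases 1227 to 1286 of NSUN5, in exon 9 at chr7:73303600-73303659 on the minus strand, and each copy differed from it at 8 bases:
NSUN5: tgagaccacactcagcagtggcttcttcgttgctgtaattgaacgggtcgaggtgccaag
NSUN5P1: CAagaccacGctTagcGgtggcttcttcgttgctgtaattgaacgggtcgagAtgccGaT
NSUN5P2: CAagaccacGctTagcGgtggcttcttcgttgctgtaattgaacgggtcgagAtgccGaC

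HERC2P2 and PI4KAP1 are shown as copies with high PABPN IP TPM relative to the PABPC IP. Their parents are HERC2, a large ubiquitin ligase gene on chromosome 15, and PI4KA, a phosphatidylinositol kinase gene on chromosome 22. The HERC2 stretch is in exon 42 at chr15:28213814-28213873 and the PI4KA stretch in exon 44 at chr22:20718763-20718822, both on the minus strand, and the copies differed at 8 and 5 bases:
HERC2: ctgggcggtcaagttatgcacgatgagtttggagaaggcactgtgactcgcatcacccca
HERC2P2: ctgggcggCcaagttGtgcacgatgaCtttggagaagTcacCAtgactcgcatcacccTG
PI4KA: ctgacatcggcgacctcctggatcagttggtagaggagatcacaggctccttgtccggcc
PI4KAP1: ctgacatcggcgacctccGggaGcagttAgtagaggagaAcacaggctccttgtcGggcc

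GTF2H2B was among the closest to its parent of all members, with 99.8% identity over the transcript to GTF2H2, which encodes a subunit of the transcription and repair factor TFIIH. The stretch with the most differences, in exon 8 at chr5:71055369-71055428 on the minus strand, still held 1 difference:
GTF2H2: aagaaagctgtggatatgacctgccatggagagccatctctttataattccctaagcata
GTF2H2B: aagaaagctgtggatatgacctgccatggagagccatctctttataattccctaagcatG

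Of the placed members, 22 of 98 (22.4%) were on chromosome 7, where 452 of the protein-coding genes (PCGs) with the same TPM minimum (4.71%) lie. Chromosome 22 held 9 members, chromosomes 3 and 17 held 8 each, chromosome 1 held 7 and chromosome 16 held 6. The median member had 5 exons in its canonical transcript and spanned 8.45 kb, against 9 exons and 31.6 kb for PCGs, 2 exons and 4.51 kb for lncRNAs, and 1 exon and 0.585 kb for processed pseudogenes, which derive from reverse-transcribed mRNA. A parent could be assigned by transcript alignment or by symbol to 78 members. Over the aligned coding sequence the median identity was 95.9%, with quartiles of 93.5% and 97.9%, and the alignment covered a median of 44.7% of the parent's coding sequence. In 62 of the 78 the alignment contained a gap whose length is not a multiple of 3 or a stop codon in the parent's frame. Of the 16 with neither, 4 covered at least 90% of the parent's coding sequence.

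The mappability of the members was measured as the share of 100-base windows of exonic sequence that occur once in hg38. The median was 87.5% over the 95 members with a value, compared with 100% for PCGs, 100% for lncRNAs and 87.5% for processed pseudogenes. Under 50% of the windows occurred once in 19 members (20%, 95% Wilson interval 13.2% to 29.1%), against 0.604% of PCGs. In 5 members no window occurred once, among them MFSD14C, STAG3L3, GTF2IP20 and GOLGA2P7, and in GTF2H2B 7.14% of windows did. How reads matching several places were treated for these libraries is not given in the sources used here, the windows leave out introns, and what repeated sequence adds to the results was not tested.

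In the Input, the members were low, with a median TPM of 5.88 and a range of 2.38 to 70.3, against medians of 15.8 for PCGs, 4.95 for lncRNAs and 7.29 for processed pseudogenes. Their median TPM was 25.9 in the PABPN IP, with a range of 5.49 to 329, and 10.9 in the PABPC IP, with a range of 5.22 to 183. In bulk RNA a lower level can mean fewer cells with the RNA or less RNA per cell, which cannot be told apart. BMS1P20, a copy of the ribosome assembly gene BMS1 on chromosome 22 at chr22:22303224-22310401, had the highest Input TPM of the members, 70.3, with 159 in the PABPN IP and 183 in the PABPC IP. SBDSP1 and CCZ1P1, both on chromosome 7, followed with Input TPM of 36.6 and 31.1, and GOLGA2P7 had the lowest, 2.38. In 96 of 99 members the Input TPM was lower than in both IPs, as it was in 9612 of the 10391 genes.

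The TPM of 85 members (85.9%) was higher in the PABPN IP than in the PABPC IP, compared with 58.9% of all genes, 57.6% of PCGs, 83% of lncRNAs and 16.8% of processed pseudogenes. The median log2 ratio of PABPN IP to PABPC IP TPM was 0.83 over the members, with quartiles of 0.23 and 1.99, and 0.23 over all genes, 0.19 over PCGs, 0.69 over lncRNAs and -1.29 over processed pseudogenes. The ratio was at least 2-fold towards the PABPN IP in 45 of 99 members (45.5%), where 23.3% of all genes pass the same limit, and at least 4-fold in 24 members (24.2%), where 4.81% of all genes do. In the other direction 1 member passed 2-fold, against 7.25% of all genes. These TPM are those that chose the members, so no test was made and nothing is read from the difference. The deposited TPM add exonic and intronic reads, each scaled by its own length, so unspliced RNA is part of each level.

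**Figure D1:**
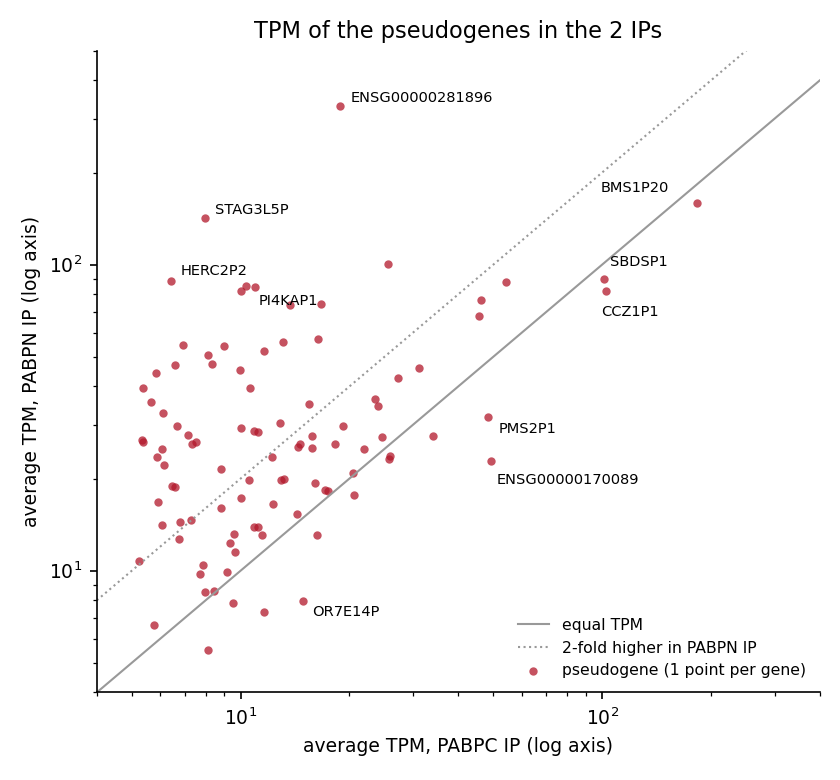
Average TPM of the 99 pseudogenes in the PABPC IP (x axis, log scale) and the PABPN IP (y axis, log scale), 1 point per gene; the solid line marks equal TPM and the dotted line a 2-fold higher TPM in the PABPN IP. Of the 99 points, 85 lie above the solid line and 45 on or above the dotted line, with STAG3L5P and ENSG00000281896 farthest above and ENSG00000170089 farthest below.

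In the members, the log2 ratio ran against PABPC IP TPM with a Spearman rho of -0.53 (n = 99 genes), and in PCGs with a rho of -0.64 (n = 9607 genes). These are correlations across genes that share all libraries, and the PABPC IP TPM is also the denominator of the ratio. Among the 42 members with a PABPC IP TPM from 5 to below 10 the median log2 ratio was 1.68, against 1.04 in the 1538 PCGs of the same range. The medians were 0.81 for 37 members and 0.69 for 2135 PCGs from 10 to below 20, and 0.17 for 16 members and 0.23 for 2663 PCGs from 20 to below 50. The medians of both classes were thus farthest apart at the lowest PABPC IP TPM and close from 20 to below 50.

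STAG3L5P, named as a relative of the cohesin gene STAG3, at chr7:100338197-100338886, had the highest ratio. Its TPM was 7.16 in the Input, 142 in the PABPN IP and 7.94 in the PABPC IP, a log2 ratio of 4.16. ENSG00000281896, which has no symbol in the table and aligned best to GTF2I, the gene of a general transcription factor, lies at chr7:128617865-128625905 and had TPM of 25.7 in the Input, 329 in the PABPN IP and 18.8 in the PABPC IP (log2 ratio 4.13). In both genes the PABPN IP stood far above the other fractions, while Input and PABPC IP lay close together. HERC2P2, at chr15:22495570-22579813, had TPM of 3.48, 88.2 and 6.4 in the Input, PABPN IP and PABPC IP (log2 ratio 3.79). PI4KAP1, at chr22:18534005-18548798, had TPM of 11.5, 85.3 and 10.4 (log2 ratio 3.04). ENSG00000260404, another sequence that aligned best to GTF2I, on chromosome 4, had a log2 ratio of 3.03. Of these 5, HERC2P2 had 34.2% of 114 windows occurring once and PI4KAP1 38.9% of 18. The windows of the other 3 all occurred once, but STAG3L5P had only 1 window and ENSG00000281896 and ENSG00000260404 had 2 each.

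At the other end, ENSG00000170089 at chr5:177875595-177883831, whose transcript was 99.7% identical to that of THOC3, a gene of the mRNA export complex THO, had TPM of 19.9 in the Input, 22.7 in the PABPN IP and 49.2 in the PABPC IP, a log2 ratio of -1.11. THOC3 itself had a log2 ratio of -1.24, and 40.7% of windows of the pseudogene occurred once. OR7E14P, an olfactory receptor pseudogene on chromosome 11 with 1 exon, had a log2 ratio of -0.91, PMS2P1 on chromosome 7 one of -0.60, and LSP1P5 on chromosome 2 one of -0.57. For comparison, the lower quartile of PCGs was -0.45.

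Relative to the Input, with each log2 ratio centred on its median over all 10391 genes, the members had a median of 0.76 in the PABPN IP and 0.084 in the PABPC IP. The corresponding medians were -0.043 and -0.017 for PCGs, 0.64 and 0.16 for lncRNAs, and -0.77 and 0.68 for processed pseudogenes. In the PABPN IP 66 of 99 members (66.7%) lay more than 0.5 above the median, where 25% of all genes did, and 2 members lay more than 0.5 below it, where 22.9% of all genes did. In the PABPC IP 4 members lay more than 0.5 above the median, where 8.3% of all genes did, and 14 lay more than 0.5 below it (14.1%), where 18.5% of all genes did. The rule set a minimum on the numerators of both ratios and not on the Input, so these counts are a description and nothing is read from them. The PABPC IP median took the other sign under 2 alternative settings.

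The editing signal of the members, like their TPM, had its highest median in the PABPN IP, while Input and PABPC IP changed order. The median EPKM of the members was 0.0150 in the Input, 0.0287 in the PABPN IP and 0.0130 in the PABPC IP, so that the PABPC IP minus PABPN IP difference of medians was -0.0157. Over all genes the medians were 0.0257, 0.0328 and 0.0481, and over PCGs 0.0273, 0.0334 and 0.0501, with the PABPC IP highest in each. The lncRNAs had medians of 0.00315, 0.0147 and 0.0200, and the processed pseudogenes of 0.0475, 0.120 and 0.123. The EPKM did not enter the rule, but it has no replicates, so these differences between classes were not tested. The means of the members followed the same order as their medians, at 0.0363, 0.0446 and 0.0332.

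**Figure D2:**
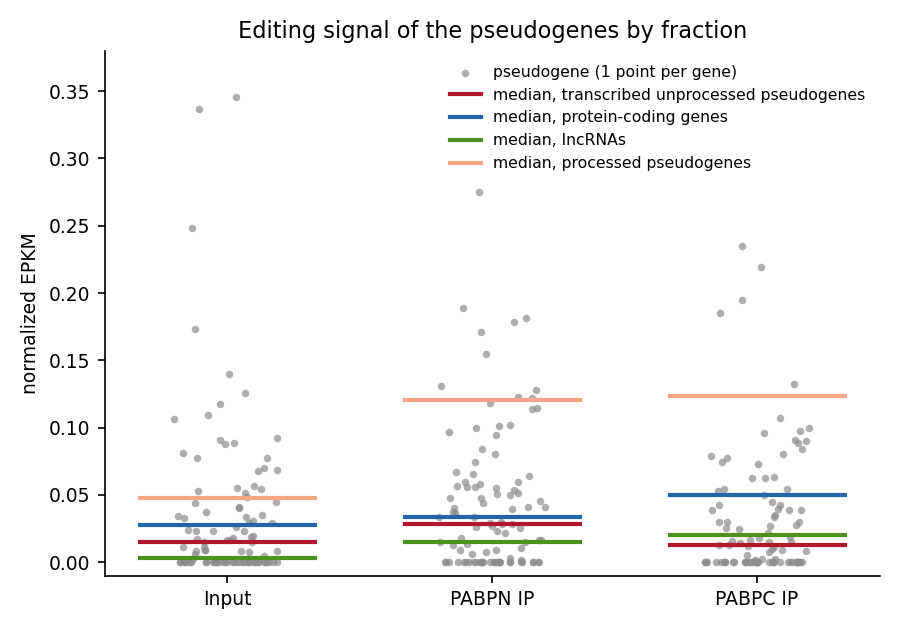
Normalized EPKM (y axis) of the 99 pseudogenes in the Input, PABPN IP and PABPC IP, 1 point per gene, spread sideways for legibility; coloured bars are the medians of the pseudogenes and of the PCGs, lncRNAs and processed pseudogenes with the same TPM minimum. The median of the pseudogenes is 0.0287 in the PABPN IP and 0.0130 in the PABPC IP, while that of the PCGs is 0.0334 and 0.0501.

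An EPKM above 0 was listed for 61 members (61.6%, Wilson interval 51.8% to 70.6%) in the Input, where 76.5% of all genes had one, for 70 members (70.7%, 61.1% to 78.8%) in the PABPN IP, where 72.1% of all genes had one, and for 61 members (61.6%, 51.8% to 70.6%) in the PABPC IP, where 81.2% of all genes had one. The intervals treat genes as draws and carry no replicate error. The PABPN IP share was thus near that of all genes and the PABPC IP share below it. In the PABPC IP 64.5% of lncRNAs and 68.4% of processed pseudogenes had an EPKM above 0, closer to the share of the members. The PABPC IP share of the members also varied with TPM. It was 73.8% from a PABPC IP TPM of 5 to below 10, against 76.9% of PCGs, 45.9% from 10 to below 20, against 80.3%, and 68.8% from 20 to below 50, against 82.6%. In the lowest of these ranges the PABPN IP share of the members, 66.7%, was below their PABPC IP share. In all 3 fractions 28 members were above 0 (28.3%), against 48.6% of all genes, while 42 members (42.4%, against 35.1% of all genes) were above 0 in 2 fractions and 24 (24.2%, against 13.9%) in 1. FAM86C2P, EP400P1, MRPL45P2, SLC7A5P1 and ENSG00000284783 were listed at 0 in all 3. In PCGs the EPKM in the PABPC IP ran with PABPC IP TPM (Spearman rho 0.45, n = 9607 genes), whereas over the members rho was -0.044 (n = 99 genes). Within the PABPN IP the same rho was 0.25 in PCGs and 0.22 in the members, and within the Input it was 0.53 and 0.085.

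Between the IPs, the EPKM of 41 members was higher in the PABPC IP, that of 48 was higher in the PABPN IP, and 10 members were at 0 in both (10.1%, against 6.73% of all genes, 14% of lncRNAs and 9.47% of processed pseudogenes). The PABPC IP was thus the higher in 46.1% of the 89 unequal members (Wilson interval 36.1% to 56.4%), against 59.5% of the unequal genes of the whole table, 52.9% of those among lncRNAs and 48.8% of those among processed pseudogenes. At least 2-fold higher values in the PABPN IP, on log2(EPKM + 0.01), were found in 40 members (40.4%), where 21.7% of all genes, 27.7% of lncRNAs and 32.6% of processed pseudogenes pass, and at least 2-fold higher values in the PABPC IP in 23 members (23.2%), where 35.9% of all genes, 32.3% of lncRNAs and 30.5% of processed pseudogenes pass. These counts depend on the pseudocount, and with 0.1 in place of 0.01 they were 8 and 4. The shares of the other classes given here hold for 0.01 only, so 8 and 4 have no background beside them. A value of 0 in one IP was common. In 28 members the EPKM was above 0 in the PABPN IP alone of the IPs, in 19 in the PABPC IP alone, and in 42 in both. These are 28.3%, 19.2% and 42.4% of the members, against 12.1%, 21.2% and 60% of all genes. Over those 42 the PABPC IP was the higher in 52.4%. The EPKM of the IPs were nearly unrelated across members (Spearman rho 0.045, n = 99 genes), and over PCGs rho was 0.19.

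At matched PABPC IP TPM the PABPN IP median of the members was above their PABPC IP median in each of 3 ranges, and that of the PCGs was below. The lncRNAs had the order of the PCGs in the lower 2 ranges and that of the members from 20 to below 50, with 0.0358 in the PABPN IP and 0.0309 in the PABPC IP. From 10 to below 20, 37 members had median EPKM of 0.0215 in the PABPN IP and 0 in the PABPC IP, where 2135 PCGs had 0.0266 and 0.0349. From 20 to below 50, 16 members had 0.0438 and 0.0251, where PCGs had 0.0364 and 0.0556. From 5 to below 10, 42 members had 0.0311 and 0.0155, where PCGs had 0.0175 and 0.0206. Only the PABPC IP TPM was matched, and the PABPN IP TPM was not. From the lowest range up, the median log2 ratio of PABPN IP to PABPC IP TPM was 1.68, 0.81 and 0.17 in members. In PCGs it was 1.04, 0.69 and 0.23. EPKM is not divided by RNA level, and what the level adds to these medians was not tested.

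Among the 10 members with the highest mean EPKM of the IPs, SEPTIN7P13, at chr1:223995895-224003654, was first in the PABPN IP. Its EPKM was 0.00579 in the Input, 0.275 in the PABPN IP and 0.0961 in the PABPC IP. MIPEPP3, a copy of the mitochondrial peptidase gene MIPEP at chr13:21298259-21306373, had 0.0877, 0.189 and 0.195, so both IPs were about equal and above the Input. CCZ1P1, a copy of the endosomal trafficking gene CCZ1 at chr7:97969005-97972254, had 0.0911, 0.131 and 0.219. STAG3L3 had 0, 0.155 and 0.0630, and GOLGA2P7, a copy of a Golgi matrix protein gene, had 0.0186, 0.0971 and 0.0975; neither has a window that occurs once. UPK3BL3P had 0.126, 0.114 and 0.0805. The remaining 4 of the 10, DGCR5, NSUN5P2, ENSG00000165121 and ENSG00000281896, are described next with the widest differences between the IPs.

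The largest excess of the PABPC IP was that of DGCR5, a gene of the DiGeorge region at chr22:18985836-18994501 whose transcript aligned best to CELSR1, with EPKM of 0 in the Input and PABPN IP and 0.235 in the PABPC IP. NSUN5P2, at chr7:72948485-72954717, had 0.173 in the Input, 0.00889 in the PABPN IP and 0.185 in the PABPC IP, so Input and PABPC IP were alike and the PABPN IP was low. PDCD6P1 had 0 in the Input and PABPN IP and 0.132 in the PABPC IP, and LINC00680 had 0, 0 and 0.107. The other members of this end were CCZ1P1 and SLC35E2A, the latter with 0.0240, 0 and 0.0842.

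The largest excess of the PABPN IP was that of ENSG00000281896, with EPKM of 0.346 in the Input, 0.181 in the PABPN IP and 0 in the PABPC IP. SEPTIN7P13 came next with the values given above. SBDSP1, a copy of the ribosome maturation gene SBDS at chr7:72829656-72836701, had 0.0234, 0.178 and 0, with TPM of 90 in the PABPN IP and 101 in the PABPC IP. ENSG00000165121, which aligned to the kinesin gene KIF27, had 0.118, 0.171 and 0.0386. CROCCP2, a copy of a ciliary rootlet gene, had 0.0150, 0.123 and 0, and BMS1P20 had 0.336, 0.119 and 0. In BMS1P20 the TPM was highest in the PABPC IP, the fraction in which its EPKM was listed at 0.

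Pseudogenes and parents were paired by symbol in 35 cases, with 27 parents, all parents having a TPM above 0 in both IPs. Several members share a parent, so the pairs are not independent. The median Input TPM was 5.42 for the pseudogenes and 13.1 for the parents, and the pseudogene was lower in 29 of 35 pairs. The log2 ratio of PABPN IP to PABPC IP TPM had a median of 1.08 in the pseudogenes and 0.75 in the parents, and the pseudogene had the higher ratio in 26 of 35 pairs, with a median difference of 0.64. The difference was at least 1 in 14 pairs and at most -1 in 4. RPL32P3, a copy of a ribosomal protein gene, had the widest difference, with a ratio of 2.88 against -1.64 for RPL32. Its TPM was 4.18 in the Input, 39.4 in the PABPN IP and 5.37 in the PABPC IP, while that of RPL32 was 842 in the PABPN IP. Both partition values ran loosely together across pairs (Spearman rho 0.36, n = 35 pairs that share libraries and, in part, parents).

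In the PABPC IP the median EPKM was 0.0165 for these pseudogenes and 0.0608 for their parents. The pseudogene was lower in 24 pairs and higher in 10, and the median difference was -0.0286. The PABPC IP TPM was also lower in the pseudogene in 22 of the 35 pairs and higher in 13, with medians of 10.4 and 17.4. The PABPN IP TPM was higher in the pseudogene in 17 pairs and lower in 18. EPKM is not divided by RNA level, and what the level adds to these differences was not tested. The PABPN IP medians of EPKM were 0.0180 for the pseudogenes and 0.00307 for the parents. By EPKM the pseudogene was higher there in 15 pairs, lower in 12 and equal in 8, with a median difference of 0. In the Input the medians were 0.0169 and 0.0201, with 13 pairs higher and 15 lower. RPL23AP82 and RPL23A were far apart in the PABPC IP, with 0.0189 and 0.749. TUBBP5 was at 0 in both IPs where TUBB, a tubulin gene, had 0.107 in the PABPN IP and 0.133 in the PABPC IP. SBDSP1 and SBDS had opposite patterns, since SBDS had 0.265 in the Input, 0 in the PABPN IP and 0.115 in the PABPC IP. When parents were assigned by alignment, 75 pairs with 57 parents gave a median difference in the log2 TPM ratio of 0.64, with the pseudogene higher in 58, and a median EPKM difference in the PABPC IP of -0.00839, with the pseudogene lower in 42.

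**Figure D3:**
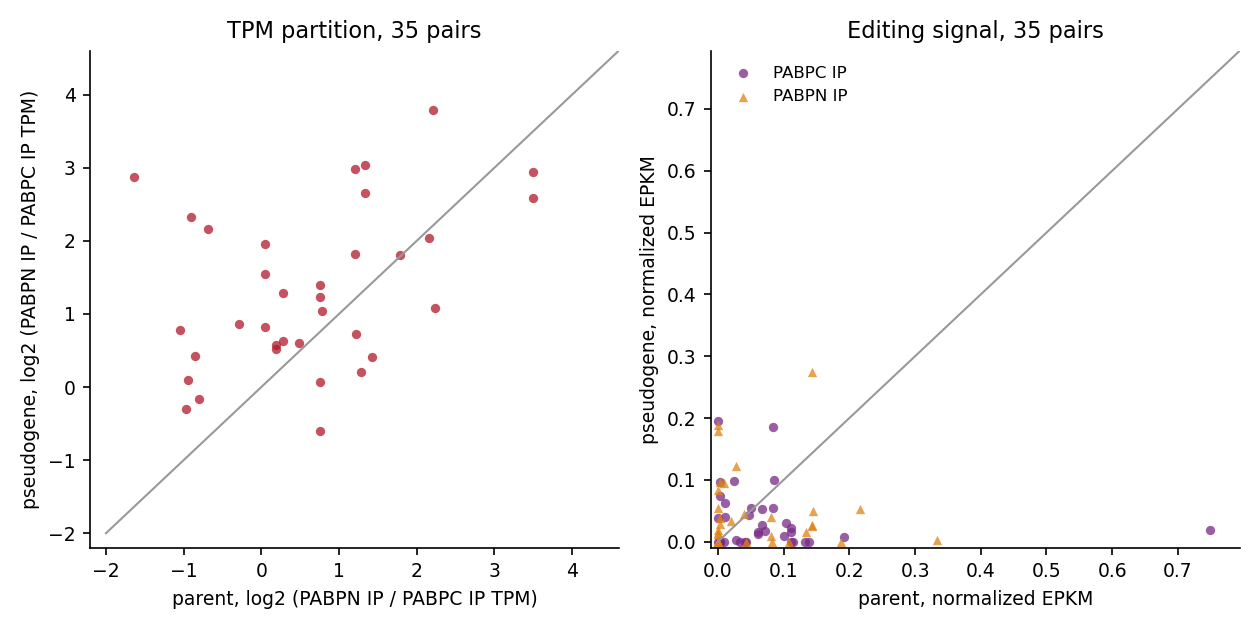
Left, log2 ratio of PABPN IP to PABPC IP TPM of the parent (x axis) and the pseudogene (y axis); right, normalized EPKM of the parent (x axis) and the pseudogene (y axis) in the PABPC IP (circles) and the PABPN IP (triangles), for the 35 pairs matched by symbol, with grey lines at equality. On the left 26 of 35 points lie above the line, and on the right 24 circles lie below it.

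Within families the copies differed from each other. The families were chosen after their values had been seen. Among the 7 FAM86 pseudogenes, 6 had log2 TPM ratios between -0.22 and 0.56, and FAM86HP on chromosome 3 had 2.30, with TPM of 26.4 in the PABPN IP and 5.35 in the PABPC IP. EEF2KMT had a ratio of -0.62 and EPKM of 0 in all 3 fractions, whereas 6 of the 7 pseudogenes had an EPKM above 0 in the PABPN IP, up to 0.0655 in FAM86DP, a count close to the 72.1% of all genes above 0 there. In the PABPC IP 3 of the 7 were above 0, with FAM86HP at 0.0777, FAM86DP at 0.0497 and FAM86JP at 0.00215, where 81.2% of all genes were above 0. FAM86C2P, which is the closest to EEF2KMT over the printed stretch, was at 0 throughout. Over the whole transcript its identity to EEF2KMT, 92.6%, was the lowest of the copies that aligned best to that gene. The highest was 95.1% in FAM86DP. FAM86FP and FAM86HP aligned best to a coding gene of the family, FAM86B2, which had a ratio of 2.18, and the others to EEF2KMT. Between 85.7% and 100% of the windows of these copies occurred once.

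The 3 SEPTIN7 pseudogenes had log2 TPM ratios of 0.83 to 1.95, all above the 0.049 of SEPTIN7. Their EPKM was 0.275, 0.0255 and 0.0271 in the PABPN IP for SEPTIN7P13, SEPTIN7P14 and SEPTIN7P2, with a median of 0.0287 over the members. SEPTIN7P13 alone was above 0 in the PABPC IP, where 61.6% of the members and 81.2% of all genes were. SEPTIN7 had EPKM of 0.0272 in the Input, 0.142 in the PABPN IP and 0.00237 in the PABPC IP. Parent and copies thus had a higher EPKM in the PABPN IP than in the PABPC IP, as did 48.5% of the members and 37.7% of all genes. The NSUN5 pair, whose printed stretches differ from each other at the last base only, had near equal log2 TPM ratios of 0.52 and 0.57. Their EPKM in the PABPN IP was 0.0401 for NSUN5P1 and 0.00889 for NSUN5P2, and in the PABPC IP 0.0545 and 0.185, with NSUN5 at 0.0803 and 0.0831. NSUN5P1 had 50.0% and NSUN5P2 37.5% of windows occurring once.

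The 4 members related to GTF2I had ratios from 1.82 to 4.13, above the 1.20 of GTF2I. All passed 2-fold, as did 45.5% of the members and 23.3% of all genes. Their alignments to GTF2I were short. They covered 3.60% of its coding sequence in ENSG00000260404, 6.04% in ENSG00000281896 and 11.8% in GTF2IP12 and GTF2IP20. The 4 STAG3 copies ranged from 0.63 in STAG3L4 to 4.16 in STAG3L5P. The 2 copies of PKD1, the gene of polycystin-1, had 2.59 and 2.95, below the 3.49 of PKD1. Both had EPKM of 0 in the PABPN IP, as PKD1 did, where 72.1% of all genes were above 0. The 4 copies of the mismatch repair gene PMS2 spread around its 0.76, with PMS2P1 at -0.60, PMS2P4 at 0.066, PMS2P3 at 1.40 and PMS2CL at 1.55. The EPKM of PMS2 was 0.112 in the PABPC IP and 0 elsewhere, while its copies reached 0.0218 there. Both copies of the mitochondrial ribosomal gene MRPS31 had their higher EPKM in the PABPC IP, at 0.0625 and 0.0394. Their PABPN IP values were 0 and 0.0129. MRPS31 itself had the same order, with 0.0112 against 0, as did 55.5% of all genes and 41.4% of the members. The 4 zinc finger pseudogenes, which share no parent, had ratios of 0.095 to 2.84. GUSBP1 and ENSG00000272578, related to the lysosomal glucuronidase gene GUSB, had 0.41 and 2.93, on either side of the 1.43 of GUSB.

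**Figure D4:**
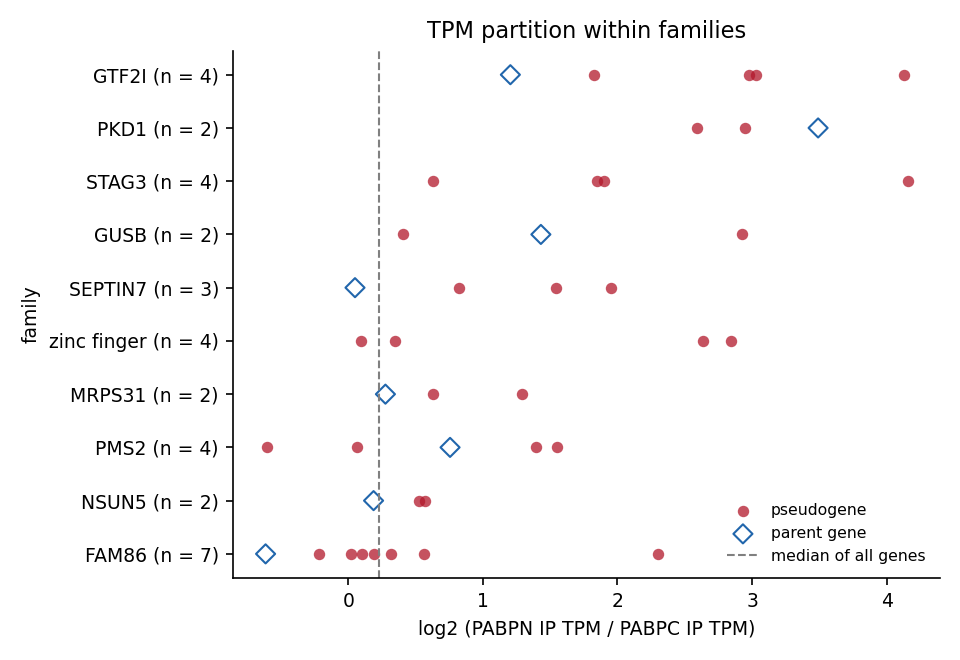
Log2 ratio of PABPN IP to PABPC IP TPM (x axis) of each pseudogene (filled points) in 10 groups (y axis), with open diamonds for the parent gene where one was used and a dashed line at the median of all genes, 0.23. The SEPTIN7, NSUN5 and MRPS31 copies all lie to the right of their parent, as the FAM86 copies do of EEF2KMT and the members related to GTF2I do of GTF2I. Both PKD1 copies lie to the left of PKD1.

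Members were also grouped by name into families known from segmental duplications, a grouping that leaves out other members lying near them, such as SBDSP1 beside NSUN5P2. The chromosome 7 set held 9 members (3 PMS2P, 4 STAG3L and 2 NSUN5P genes), and 8 of the 9 had the higher TPM in the PABPN IP, 4 of them by 2-fold or more, which is near the shares of 85.9% and 45.5% over the members, with 58.9% and 23.3% over all genes. The chromosome 16 set held NPIPP1, PKD1P3 and PKD1P6, all above 2-fold, and the chromosome 1 set held CROCCP2 and NBPF8, at 1.81 and 2.42. GENCODE release 44 calls NBPF8 protein-coding. HERC2P2 and GOLGA2P7 on chromosome 15 had 3.79 and 0.20, PI4KAP1 on chromosome 22 had 3.04, and none of the 8 members on chromosome 17 had a name of its set. Over all 22 members on chromosome 7 the median ratio was 0.72, against 0.84 over the 76 on other chromosomes.

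Features of the gene models were set beside these values. The 19 members with under 50% of windows occurring once had a median log2 TPM ratio of 1.85, the 32 from 50% to under 90% had 0.82, and the 44 from 90% upwards had 0.65, and rho across the 95 members was -0.15. Members with 8 or more exons had a median ratio of 1.54 (n = 29), those with 4 to 7 exons 0.63 (n = 45) and those with 1 to 3 exons 0.82 (n = 24). The Spearman rho of the ratio with exon number was 0.098 over 98 members and 0.37 over 9605 PCGs. The median EPKM in the PABPN IP was 0.0265 for members with under 50% of windows occurring once, 0.0279 for those from 50% to under 90% and 0.0394 for those with at least 90%, and in the PABPC IP it was 0.0255, 0 and 0.0122, with no steady order. The 16 members whose alignment had neither a gap off the frame nor a stop had a median EPKM of 0 in the PABPN IP and 0.0155 in the PABPC IP, and the 62 with such a change had 0.0336 and 0.0114. These are descriptions of small groups without a test.

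**Figure D5:**
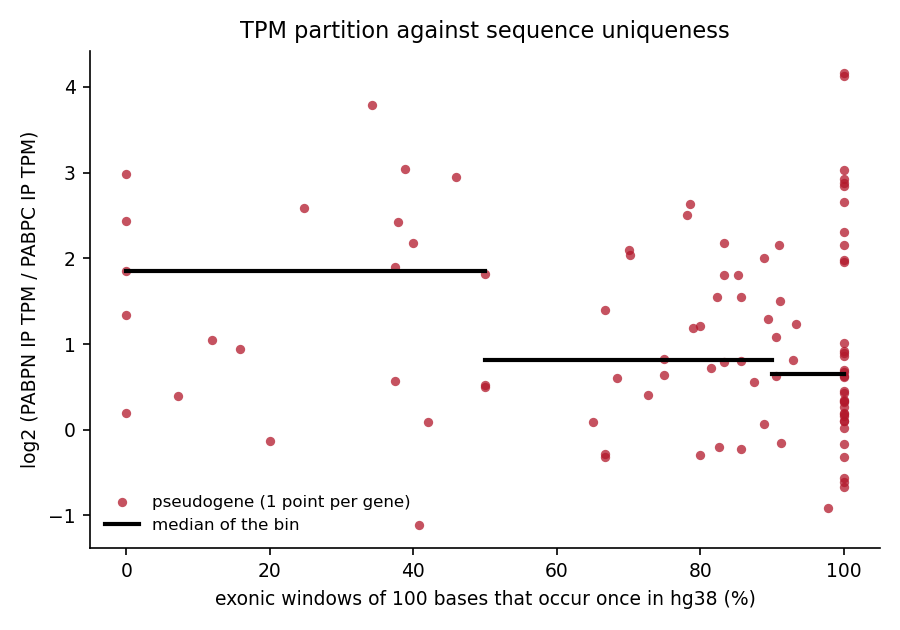
Share of 100-base exonic windows that occur once in hg38 (x axis, percent) and log2 ratio of PABPN IP to PABPC IP TPM (y axis) of the 95 pseudogenes with a value, 1 point per gene, with black bars at the median of each of 3 bins. The medians are 1.85, 0.82 and 0.65 from the least to the most unique bin, and the points of each bin overlap with those of the others.

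The polyadenylation signal hexamers AATAAA and ATTAAA were searched on the gene's strand in the last 50 bases of the RefSeq gene model (GRCh38.p14), for 78 members. At least 1 of the hexamers was found in 45 members (57.7%, Wilson interval 46.6% to 68.0%), against 81.1% of 9457 PCGs and 80.3% of all 9938 genes searched. AATAAA itself was found in 38 members (48.7%) and 65.7% of PCGs. The median log2 TPM ratio was 0.81 in members with a hexamer and 0.83 in the 33 without, and the median EPKM in the PABPC IP was 0.0165 and 0.0160. Where a gene model ends short of the transcript, the window misses the true end.

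The TPM minimum of 5 cut close to some values. Just inside it were NPEPPSP1, with 10.8 in the PABPN IP and 5.22 in the PABPC IP, and GLUD1P3, with 26.8 and 5.33. Just outside were SDHAP3, with 81.3 and 4.95, and ULK4P3, with 11.1 and 4.87. All 4 were decided by the PABPC IP. ULK4P3 had EPKM of 0.202 in the PABPN IP and 0.122 in the PABPC IP, and SDHAP3 had 0.0191 and 0. Over the 227 genes with a TPM below the minimum in at least 1 IP the median EPKM was 0.00932 in the PABPN IP and 0 in the PABPC IP.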

How the data were processed

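HEK293T Ribo-STAMP libraries from the Input, PABPN IP and PABPC IP (17 samples) were described by 1 deposited table of 18869 genes. Reads were mapped to hg38 by the authors using STAR and counted with featureCounts 2.0.2 on an annotation made from GENCODE release 34 without overlapping and readthrough regions. The deposited EPKM is a background-subtracted editing signal, scaled by the authors for length and library size. The deposited TPM are the authors' averages of exonic plus intronic TPM, recorded here as a score because each value stands on 3 lines of the table, 1 per fraction. Which samples entered each average and how values below 0 were handled are not given in the sources used here. The paper gives the minimum and average number of reads per sample for these libraries. All columns are pooled, so the precision per sample and the reads behind each value are unknown, and no test was run.

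Members were the genes of the biotype whose TPM reached 5 in each IP, and the background all genes with a biotype that did so. The members and lists were chosen with earlier results of these data known. Computed were medians, counts, shares with 95% Wilson intervals, and log2 ratios (pseudocount 0.01 for EPKM). The parent families were set after values were seen. Named were the 10 members with the highest mean EPKM of the IPs, the 6 largest differences each way, the 5 highest and 5 lowest TPM ratios, families, parents and the genes nearest the TPM minimum; 1 gene so selected is not reported here. Parents came from symbols, or from BLAST 2.17.0 (identity of at least 80%, at least 50% covered). GENCODE release 44 (hg38) gave gene models, names and positions for 98 members. It differs from the authors' annotation and names 6 of 21 members that lack a symbol in the table. It calls 97 members by the same biotype and NBPF8 protein-coding. Windows of 100 bases were taken every 20 bases. The summaries were tested on simulated data. Software was Biopython 1.88, matplotlib 3.10.9, SciPy 1.17.1, pandas 2.3.3, NumPy 2.4.6 and Python 3.11.15. Alternatives changed the gene set, the summary, the threshold, the pseudocount, the centring and the parents.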

Additional observations from a re-analysis of the deposited data

Results flagged for a closer look

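Outside the comparisons, 21 genes of the biotype carry an EPKM and no TPM. Counted by fraction, the EPKM of 13 was above 0 in the PABPN IP, that of 7 in the PABPC IP and that of 6 in the Input, with 18 above 0 in at least 1 fraction. Over all genes with the TPM minimum the shares above 0 were 72.1%, 81.2% and 76.5%, and over the 347 genes of the biotype 64.6%, 49.9% and 42.4%, so the counts are not high for this biotype. They were singled out because an EPKM above 0 already exceeds the control subtracted from it. The highest value was 0.216 in the PABPN IP for ENSG00000285522, which was at 0 in the Input and the PABPC IP. ENSG00000239969, CSPG4P5 and LRRC37BP1, named after their values were seen, were above 0 in all 3 fractions. With no TPM, their level cannot be set beside the editing.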

How the results depend on the processing

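Values are pooled, so no replicate could be left out. No paired analysis was possible because every column is an average over replicates. A share was taken as unmoved inside the Wilson interval of the reported value, other values within a factor of 1.5 and with the same sign, and 37 of 55 comparisons over 10 settings were unmoved. The centred PABPC IP over Input median changed sign, from 0.084 to -0.066 with a TPM minimum of 1 and to -0.031 as a mean. Without centring it was 1.09 and the PABPN IP median 1.94. With a TPM minimum of 1 (209 genes) the median log2 TPM ratio was 1.34, and 49 and 78 genes were 2-fold higher in EPKM in the PABPC IP and PABPN IP. A minimum of 10 (55 genes) gave 12 and 24. All 347 listed genes gave 60 and 131, with EPKM above 0 for 49.9% (PABPC IP) and 42.4% (Input). A pseudocount of 0.1 left 4 and 8 members. Members above 0 in both IPs had an EPKM difference of medians of -0.00672. The mean pseudogene minus parent EPKM in the PABPN IP was -0.0123, where the median was 0, and by alignment the PABPC IP difference was -0.00839. Counts follow the number of genes tested by construction, and the cause of the other changes was not tested.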

Other observations

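Other pseudogene classes with the same TPM minimum were small. The 21 unprocessed pseudogenes not annotated as transcribed had a median log2 ratio of PABPN IP to PABPC IP TPM of 2.03 and median EPKM of 0.0628 in the Input, 0.0442 in the PABPN IP and 0.0671 in the PABPC IP. The 21 transcribed processed pseudogenes had a median ratio of 0.74 with EPKM of 0, 0.0366 and 0.0281, and the 9 transcribed unitary pseudogenes, whose gene was lost without a duplicate, had 1.08 with EPKM of 0, 0 and 0.0237. The difference between these classes was not tested.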
